A study of Mus musculus with 30 samples.

Results

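The interferon-inducible GTPases described here are 10 genes taken by symbol from 2 families, 5 guanylate-binding proteins (GBP: Gbp2, Gbp3, Gbp5, Gbp6 and Gbp7) and 5 immunity-related GTPases (IRG: Irgm1, Irgm2, Igtp, Iigp1 and Ifi47). They are 10 of 30952 genes in an RNA-seq table of spinal cord microglia and astrocytes. The rule that took them uses symbols and no measured values, but it was set with earlier results of these data known. All 10 were found in the table, and all 10 varied enough to be tested in every comparison.

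Both families are enzymes that bind and hydrolyze GTP and are made in large amounts once interferon reaches a cell. Interferon-gamma acts through the kinases Jak1 and Jak2 and induces genes that carry gamma-activated sequences (GAS), while the type I interferons act through Jak1 and Tyk2 and induce genes that carry interferon-stimulated response elements (ISRE). GBPs assemble on the vacuoles of intracellular pathogens and on bacteria in the cytosol. Among the IRGs, Irgm1, Irgm2 and Igtp (also called Irgm3) are regulators that sit on the cell's own membranes and hold the effector IRGs inactive there, and Iigp1 (Irga6) and Ifi47 (Irgd) belong to the effectors, which coat pathogen vacuoles.

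The libraries came from female C57BL/6 mice, either naïve or immunized with the myelin peptide MOG35-55 to induce experimental autoimmune encephalomyelitis (EAE), an autoimmune inflammation of the spinal cord. By the methods of the study, the peptide was given in complete Freund's adjuvant, and pertussis toxin was injected as well. Comparisons with naïve mice cannot tell these treatments apart from the disease. From a clinical score of about 1, mice with EAE received the RIPK1 kinase inhibitor GSK'547 at 50 mg/kg BID by oral gavage for 3 days or its vehicle, 20% Captisol, and the untreated naïve mice were not immunized. Microglia were sorted as CD11b+CD45intCX3CR1+ cells and astrocytes as GLAST+CD11b-CD45-CD140a- cells. Each cell type had 15 libraries, of which 4 were naïve, 6 were EAE-vehicle and 5 were EAE-inhibitor. The mice with EAE were young adults at immunization. The labels do not name the mouse behind each library. The study, however, counts every group of this sequencing in mice, the naïve group included, and these sizes equal the library counts per cell type. It also defines its sample sizes as biological replicates. The libraries of a group are therefore read as separate mice. P-values measure the spread between these libraries, which may in part be technical.

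Values are log2 FPKM (fragments per kilobase of transcript, scaled to the size of the library) as the authors deposited them, quantile-normalized over the 30 libraries, so that 1 unit is about a doubling and levels can be set side by side between genes per length. The offset added before the log is not given in the sources used here, so folds depend on it, and none is given over naïve values that reach down to 2 or less. The sequencing depth is unknown. Between 8710 and 20398 genes carried a signal in the microglia libraries and between 6728 and 22981 in the astrocyte libraries. 4 libraries had fewer than 10000 genes with signal, namely microglia naïve 4 and astrocytes naïve 2, EAE-vehicle 1 and EAE-inhibitor 5. Genes without signal in a library hold low values that follow the order of the table (up to 2.74 in astrocytes EAE-vehicle 1), and no linear fold is given for a gene where any library of a group lacked signal. Replicates correlated at r = 0.704 to 0.959 in microglia and 0.514 to 0.836 in astrocytes, over all genes. Averaged over 10 microglia markers, microglia libraries lay between 8.22 and 11.04 and astrocyte libraries between 0.95 and 3.89. Averaged over 8 astrocyte markers, the astrocyte libraries lay between 8.03 and 10.17 and the microglia libraries between 1.02 and 2.16. By these markers the libraries matched their labelled cell types. The mean of oligodendrocyte markers was also high in astrocyte libraries (6.19 to 9.91), against 1.72 to 2.95 in microglia libraries. It exceeded the astrocyte mean in astrocytes EAE-vehicle 3, 5 and 6 (9.91 against 8.46 in EAE-vehicle 6) and EAE-inhibitor 4.

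The members lie in a few places of the mouse genome (GRCm38, positions as deposited). Gbp5 (chr3:142493978-142522344), Gbp7 (chr3:142530342-142550149), Gbp3 (chr3:142560026-142573209) and Gbp2 (chr3:142620602-142638008) stand in a row on the plus strand of chromosome 3 and together span 144031 bases. Gbp6 lies alone among the members on chromosome 5 (chr5:105270702-105293698, minus strand). Chromosome 11 holds Irgm1 (chr11:48861968-48871683, minus strand), Ifi47 (chr11:49076587-49096974), Igtp (chr11:58199556-58207591) and Irgm2 (chr11:58199618-58222782). Iigp1 lies apart from the others. Igtp and Irgm2 share 162 exon bases on the same strand, which is 8.0% of the exon bases of Igtp and 4.4% of those of Irgm2. Gbp6 shares 29.0% of its exon bases with Gm43302, Gbp7 shares 11.3% with the pseudogene Gm43802, and Ifi47 shares 8.8% with Olfr56 and Gm12188, so reads from these stretches could have been counted for either gene. The libraries carry no strand information.

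The promoters are shown because interferon acts on these genes through short elements near the start of transcription. Letters were searched in the RefSeq promoter windows of GRCm38.p6 (250 bases before to 50 after the start) for GAS, spelled TTCNNNGAA, and ISRE, spelled GAAANNGAAA, on either strand, and neighbouring or overlapping matches are shown in 1 stretch of 30 bases with the matched letters in capitals. 8 of the 10 members had a window. Stretches that held a match read, 5′ to 3′ on the strand of the gene:
Gbp5 ISRE, chr3:142496759-142496788: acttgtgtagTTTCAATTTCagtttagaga
Gbp5 GAS, chr3:142496872-142496901: tggccgttatTTCTCAGAAccaagcacaga
Gbp7 GAS, chr3:142530220-142530249: tccgttttctTTCCAGGAAaagcagaagct
Gbp7 GAS, chr3:142530239-142530268: aagcagaagcTTCTCAGAAagtcagcacaa
Gbp7 ISRE, chr3:142530273-142530302: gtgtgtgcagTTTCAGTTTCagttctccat
Gbp3 overlapping ISREs, chr3:142559992-142560021: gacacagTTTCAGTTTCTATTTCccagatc
Gbp2 ISRE, chr3:142620594-142620623: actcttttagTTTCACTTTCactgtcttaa
Irgm1 overlapping ISREs, chr11:48871428-48871457, minus strand: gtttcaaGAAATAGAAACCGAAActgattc
Igtp GAS and ISRE, chr11:58199507-58199536: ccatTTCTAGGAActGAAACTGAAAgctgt
Irgm2 GAS and ISRE, chr11:58214898-58214927: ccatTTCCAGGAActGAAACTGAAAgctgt
An ISRE match stood in 7 of the 8 genes with a window and in 3.44% of all 32851 promoter windows. GAS matches were found for 4 of the 8, against 8.3% of all windows, and a window with both was found for the same count of 4 genes, against 0.454%. The stretches of Igtp and Irgm2 are the same in 29 of 30 bases. The windows of Ifi47 and a second one of Gbp3 held neither set of letters, and Gbp6 and Iigp1 were not searched. For the stretches shown, the RefSeq starts of Gbp2, Gbp3, Gbp5, Irgm1 and Irgm2 lie inside the deposited spans of these genes. The stretches of Gbp5, Irgm1 and Irgm2 lie wholly inside these spans too.

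In naïve mice the regulators Igtp and Irgm1 stood at the top of the order of levels in both cell types. In naïve microglia Igtp was at 6.65, 6.92, 5.27 and 7.30 log2 FPKM, and Irgm1 was at 5.41, 5.65, 6.04 and 3.69. Irgm2 stood at 4.72, 5.05, 5.16 and 1.84, with the low value in the library with few genes with signal. Gbp3 (mean 3.15 ± 0.49, SD, n = 4) and Gbp7 (3.07 ± 1.42) followed, and the means of Gbp2, Gbp5, Ifi47, Iigp1 and Gbp6 lay between 1.49 and 0.46. Neighbours in this order overlapped in their values.

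Naïve astrocytes had low levels of most members. Irgm1 was at 4.33, 4.61, 2.46 and 4.58 log2 FPKM and was the member with the highest mean there (4.00 ± 1.03, SD, n = 4). Igtp varied most among the regulators, at 3.64, 2.41, 0.00 and 5.85. Its highest value came from naïve 4, where the mean of endothelial cell markers was 4.05, against 0.18 to 0.57 in the other naïve astrocyte libraries. The part of endothelial RNA in this value was not tested. Irgm2 was listed at 0 in 3 of the 4 libraries and at 0.10 in the other. Gbp5 had no signal in any naïve astrocyte library. Ifi47 was at 0.35, 5.23, 0.00 and 0.00, so its level rested on naïve 2, a library with few genes with signal.

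**Figure D1:**
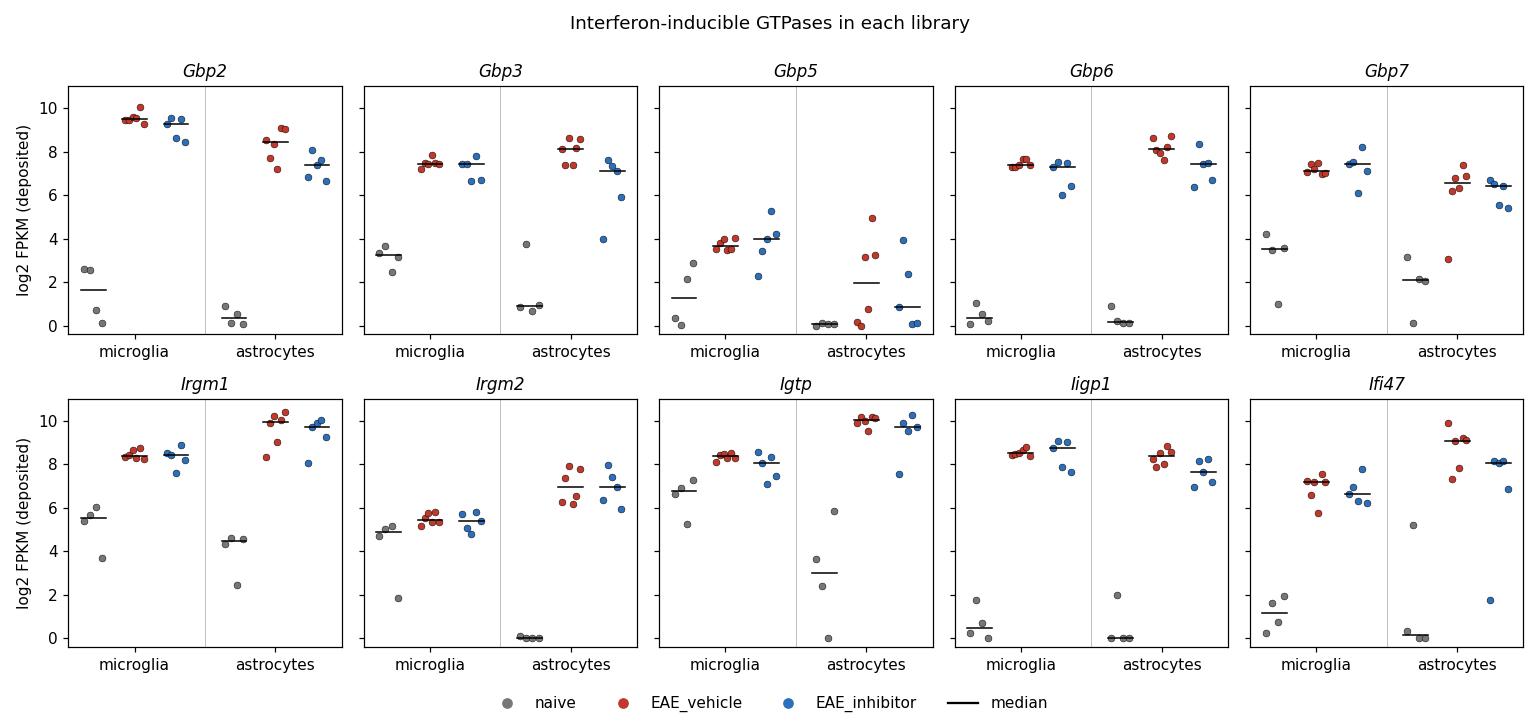
Level of each of the 10 members in every library on the deposited log2 FPKM scale, microglia and astrocytes apart, with the naïve (n = 4), EAE-vehicle (n = 6) and EAE-inhibitor (n = 5) libraries side by side. Points are libraries and lines are group medians; Gbp2 in microglia goes from 0.12 to 2.59 in naïve libraries to 9.26 to 10.06 in EAE-vehicle libraries.

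The first comparison asks what EAE did to these genes in microglia. Every member was higher in each EAE-vehicle library than in each naïve library, which held for 10 of 10 members and for 2.93% of the 28958 genes tested. 9 of 10 members passed an adjusted p of 0.05 in limma, where 3.92% of all genes did in either direction, and all 10 passed the cutoff the study used (a fold over 1.5 with an unadjusted p under 0.05), where 12.0% of genes did. That cutoff is applied here and below to the limma p, whereas the methods of the study name a paired t test. With replicate number added to the fit as a block, the call on Gbp5 was lost. The median of the 10 differences was 4.22 on the log2 scale, beside -0.02 over all genes tested.

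The GBPs reached the highest level of the members in microglia through Gbp2. Gbp2, a GBP that is anchored to membranes by a lipid tail, was at 2.59, 2.54, 0.71 and 0.12 in naïve microglia, and in EAE-vehicle libraries its lowest, median and highest values were 9.26, 9.51 and 10.06. Its groups were far apart, and the difference was 8.07 (SE 0.44, limma adjusted p = 5.7e-08). Gbp6, at 0.05, 1.06, 0.54 and 0.19 in naïve libraries and at 7.30 to 7.68 in EAE-vehicle libraries (median 7.39), rose by 7.00 (SE 0.31, limma adjusted p = 4.99e-09). In naïve microglia Gbp2 carried a signal in 3 of 4 libraries and Gbp6 in 2 of 4.

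Gbp3 and Gbp7 carried a signal in all 4 naïve microglia libraries. Gbp3 was at 3.32, 3.66, 2.48 and 3.15 in naïve microglia and at 7.19, 7.45 and 7.85 (lowest, median, highest) in EAE-vehicle microglia, a 20.0-fold rise (4.32, SE 0.26, limma adjusted p = 2.15e-07). Gbp7 moved from 4.22, 3.50, 1.00 and 3.56 to between 6.95 and 7.46 (median 7.12), a difference of 4.12 (SE 0.51, limma adjusted p = 0.000239). Gbp5, known for promoting assembly of the NLRP3 inflammasome, stayed the lowest member in EAE microglia, at 3.49, 3.66 and 4.01, against 0.35, 0.02, 2.16 and 2.89 in naïve libraries. Its groups did not overlap, and its rise of 2.36 (SE 0.59) passed narrowly (limma adjusted p = 0.0372). The call on Gbp5 was lost when any 1 of the 6 EAE-vehicle libraries, EAE-inhibitor 5, naïve 1 or naïve 2 was left out (adjusted p up to 0.123, with a difference of 1.91 without naïve 2), and in 1 fit of all 30 libraries (adjusted p = 0.206).

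Among the IRGs the effectors rose further than the regulators in microglia. Iigp1 was at 0.23, 1.78, 0.72 and 0.03 in naïve microglia and at 8.41, 8.50 and 8.78 (lowest, median, highest) in EAE-vehicle microglia, a difference of 7.86 (SE 0.35, limma adjusted p = 5.13e-09). Ifi47 went from 0.24, 1.64, 0.74 and 1.96 to between 5.76 and 7.57 (median 7.18), a difference of 5.78 (SE 0.42, limma adjusted p = 1.63e-06). The difference between effectors and regulators was not itself tested.

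The regulators, already high in naïve microglia, gained less. Irgm1 had EAE-vehicle values of 8.25, 8.39 and 8.74 (lowest, median, highest), a 9.55-fold rise over the naïve values given above (3.26, SE 0.37, limma adjusted p = 0.000107). Igtp reached 8.12 to 8.51 (median 8.37), a 3.53-fold rise (1.82, SE 0.35, limma adjusted p = 0.00717), a call that ended when all 30 libraries were fitted together (adjusted p = 0.213). Irgm2 was at 5.19, 5.44 and 5.80 in EAE-vehicle microglia, just above the naïve range of 1.84 to 5.16, and its difference of 1.31 (SE 0.52) did not pass (limma adjusted p = 0.238, unadjusted p = 0.0234). For each of the 10 members the exact two-sided permutation test over libraries gave p = 0.00476, the smallest that 4 against 6 libraries allow.

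Other cell markers were measured in the same microglia libraries. The mean of 9 markers of monocytes and neutrophils ran from 2.90 to 6.77 in naïve and from 4.15 to 7.40 in EAE-vehicle libraries, and 1 of the 9 (Fn1) passed as higher. Naïve 3, with the highest mean of these markers among naïve libraries (6.77), had a mean of 2.48 over the 10 members, among the lowest. The mean of 9 T cell markers was 0.14 to 0.44 in naïve and 0.24 to 0.95 in EAE-vehicle microglia, with none of 9 passing (0 of 9 also had an unadjusted p under 0.05 with a fold over 1.5). Markers of microglia themselves fell, 7 of 10 passing as lower, among them P2ry12, a purinergic receptor of resting microglia (-4.16). The part of monocyte RNA in the rise of the GTPases was not tested. In such bulk libraries, fewer cells of a type and less RNA per cell cannot be told apart.

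**Figure D2:**
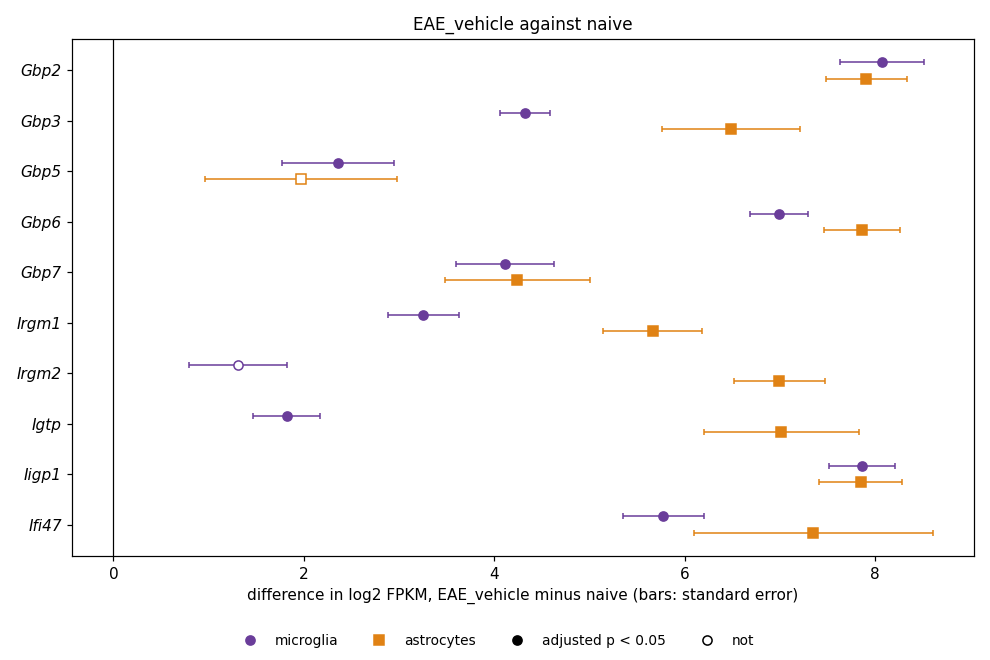
Difference between EAE-vehicle and naïve libraries for each member in microglia and in astrocytes, on the log2 scale, with bars of 1 SE from limma; filled points passed an adjusted p of 0.05. The differences run from 1.31 (Irgm2) to 8.07 (Gbp2) in microglia and from 1.98 (Gbp5) to 7.91 (Gbp2) in astrocytes.

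In astrocytes EAE was accompanied by a rise of 9 of the 10 members, among them Irgm2, a regulator with almost no signal in naïve astrocytes. 9 of 10 passed in limma, where 0.579% of the 30718 genes tested did in either direction, and the same number passed the cutoff of the study, where 6.71% did. With replicate number added to the fit as a block, the calls on Gbp7 and Ifi47 were lost. Every EAE-vehicle library was above every naïve library for 8 of 10 members and for 1.02% of all genes, the exceptions being Gbp5 and Gbp7. The median difference of the members was 7.01, beside 0.03 over all genes tested.

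The regulators Igtp and Irgm1 had the highest mean levels in astrocytes with EAE. Igtp was at 9.52, 10.06 and 10.19 (lowest, median, highest) in EAE-vehicle astrocytes, against the naïve 0.00 to 5.85, a difference of 7.02 (SE 0.81, limma adjusted p = 0.000383). Irgm1 reached 8.35 to 10.42 (median 9.96), a 50.7-fold rise (5.66, SE 0.52, limma adjusted p = 3.89e-05). Irgm2 went from being listed at 0 in 3 libraries to 6.18, 6.97 and 7.92, a difference of 6.99 (SE 0.48, limma adjusted p = 1.21e-06). For all 3 regulators the groups stood apart.

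Both effector IRGs rose as well. Iigp1 was at 0.00, 2.00, 0.00 and 0.01 in naïve astrocytes and at 7.91, 8.39 and 8.83 (lowest, median, highest) with EAE, a difference of 7.85 (SE 0.44, limma adjusted p = 1.06e-07). Ifi47 was at 7.33 to 9.89 (median 9.10), a difference of 7.35 (SE 1.25, limma adjusted p = 0.0113) over naïve values that ran up to 5.23. The lowest EAE-vehicle value of Ifi47 was thus above the highest naïve value. The call on Ifi47 was lost without naïve 1 (adjusted p = 0.0607), naïve 3 (0.0598) or naïve 4 (0.0518), with differences of 7.00, 6.89 and 6.89.

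For the GBPs of astrocytes the rise was large in 3 genes, smaller in Gbp7 and not called in Gbp5. Gbp2 was at 0.92, 0.12, 0.54 and 0.09 in naïve and at 7.20, 8.45 and 9.09 (lowest, median, highest) in EAE-vehicle astrocytes, a difference of 7.91 (SE 0.43, limma adjusted p = 1.03e-07). Gbp6 went from 0.88, 0.19, 0.11 and 0.14 to between 7.62 and 8.72 (median 8.13), a difference of 7.86 (SE 0.40, limma adjusted p = 6.11e-08). Gbp3 was at 0.84, 3.74, 0.66 and 0.96 and then at 7.39, 8.14 and 8.61, a difference of 6.49 (SE 0.72, limma adjusted p = 0.000315). None of these 3 genes had overlapping groups.

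Gbp7 and Gbp5 were the less certain pair in astrocytes. Gbp7 was at 3.17, 0.12, 2.14 and 2.04 in naïve and at 3.08, 6.56 and 7.38 (lowest, median, highest) in EAE-vehicle astrocytes, a difference of 4.24 (SE 0.76, limma adjusted p = 0.0163). Its lowest EAE-vehicle value came from EAE-vehicle 1, the library with the fewest genes with signal of all 30, and fell just under the highest naïve value. The call on Gbp7 was lost without naïve 3 (4.33, adjusted p = 0.0589) or naïve 4 (4.30, adjusted p = 0.0518). Gbp5, with no signal in naïve astrocytes, was at 0.16, 0.00, 3.15, 0.74, 4.96 and 3.24 in EAE-vehicle libraries, and its difference of 1.98 (SE 1.01) did not pass (limma adjusted p = 0.804). The exact two-sided permutation p was 0.00952 for Gbp7, 0.0667 for Gbp5 and 0.00476 for each of the other 8 members.

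Leaving out the 4 libraries with fewer than 10000 genes with signal left 9 of 10 members past the threshold in each cell type. With them removed, the median difference was 4.30 in microglia and 7.17 in astrocytes.

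Some markers of other cells rose with EAE in the astrocyte libraries, and some of the astrocytes' own fell. The mean of 9 T cell markers was 0.61 to 1.29 in naïve, 1.45 to 6.08 in EAE-vehicle and 1.41 to 5.84 in EAE-inhibitor libraries, and 1 of 9 (Cd2, 5.49) passed as higher with EAE, with 6 of 9 past the cutoff of the study. The mean of 9 markers of monocytes and neutrophils was 0.13 to 1.92 in naïve and 2.43 to 5.28 in EAE-vehicle libraries, 1 of the 8 tested passed (Lyz2, 5.44), with 6 of 8 past the cutoff of the study, and the neutrophil marker Ly6g was listed at 0 in every astrocyte library. Oligodendrocyte markers had a mean of 6.19 to 7.39 in naïve and 6.38 to 9.91 in EAE-vehicle libraries, with 1 of 7 passing (Mobp, 2.34) and 4 of 7 past the cutoff of the study. Of 8 astrocyte markers, 3 passed as lower with EAE, namely Atp1b2 (-3.33), Gja1 (-3.07) and Slc1a3 (-1.94), 1 as higher (Gfap, 2.47), and 5 were lower by the cutoff of the study, with a median of -1.46. EAE-vehicle 4 had the lowest T cell mean of its group (1.45) and the lowest mean of monocyte and neutrophil markers (2.43), both still above every naïve library, and its mean over the 10 GTPases was 6.99, where naïve libraries reached at most 1.86. The part of these other cells in the rise of the GTPases was not tested.

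The cell types were then compared within each group, with libraries treated as independent although the study isolated both cell types from the same EAE mice. In naïve mice 2 of 10 members passed as higher in microglia, where 11.9% of all 30952 genes passed in either direction, namely Irgm2 (4.17, SE 0.54, limma adjusted p = 1.45e-06) and Igtp (3.56, SE 0.71, limma adjusted p = 0.000603). The other 8 differences ran from -0.25 to 1.60. With 10 members, a count of 2 is not far from the share of all genes. Without microglia naïve 4, the count was 4, with Gbp2 (1.53, adjusted p = 0.0277) and Irgm1 (1.70, adjusted p = 0.0227) added, and Gbp3 passed without astrocytes naïve 2 (2.33, adjusted p = 0.00405) or astrocytes EAE-inhibitor 1 (1.60, adjusted p = 0.033).

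With EAE and vehicle, Gbp2 was higher in microglia and Irgm2 higher in astrocytes. Those 2 of 10 members passed, where 13.8% of all genes did, so the count is not far from that share. Gbp2 was 2.36-fold higher in microglia (1.24, SE 0.39, limma adjusted p = 0.0286), with each of its 6 microglia values above the highest astrocyte value. Irgm2 was 2.86-fold lower in microglia (-1.51, SE 0.44, limma adjusted p = 0.0193), each microglia value lying under the lowest of astrocytes. The share of all genes that stood apart in this way was not counted. Irgm1 (-1.20, adjusted p = 0.0536) and Igtp (-1.64, adjusted p = 0.0605) were close to the threshold on the same side as Irgm2. These calls were sensitive to single libraries. The count fell to 1 without astrocytes EAE-vehicle 2, 3 or 6 or microglia EAE-vehicle 5 and rose to 4 without astrocytes EAE-inhibitor 1 or astrocytes naïve 3, and Gbp2 was also lost without astrocytes EAE-vehicle 4 (1.01, adjusted p = 0.0873).

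In the EAE-inhibitor libraries the same 2 genes passed, where 13.0% of all genes did, again a count not far from that share. Gbp2 was higher in microglia by 1.76 (SE 0.42, limma adjusted p = 0.00404) and Irgm2 differed by -1.56 (SE 0.49, limma adjusted p = 0.0306). Irgm2 lost its call without any of 6 libraries, namely astrocytes EAE-inhibitor 2, 3 and 4 and microglia EAE-inhibitor 2, 3 and 5 (adjusted p up to 0.0994).

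Irgm2 was thus higher in microglia of naïve mice and higher in astrocytes with EAE, and the difference between the rises in the cell types was tested as an interaction. Irgm2 rose less in microglia than in astrocytes, by -5.68 on the log2 scale (SE 0.70, limma adjusted p = 3.64e-05), and Igtp by -5.20 (SE 0.92, limma adjusted p = 0.00271). Those were 2 of 10 members, where 0.982% of all genes passed. Irgm1 (-2.41, adjusted p = 0.0765) and Gbp3 (-2.17, adjusted p = 0.272) had the next differences, and Irgm1 passed without microglia naïve 4 (-2.91, adjusted p = 0.0182), astrocytes EAE-vehicle 1 (-2.67, adjusted p = 0.0341) or astrocytes EAE-inhibitor 1 (-2.41, adjusted p = 0.0494), while Gbp3 passed without astrocytes naïve 2 (-2.90, adjusted p = 0.0342). The remaining 6 members had interaction values from -1.57 to 0.39, none of which passed. Igtp and Irgm2 are the pair that share exon bases and nearly the same promoter stretch.

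**Figure D3:**
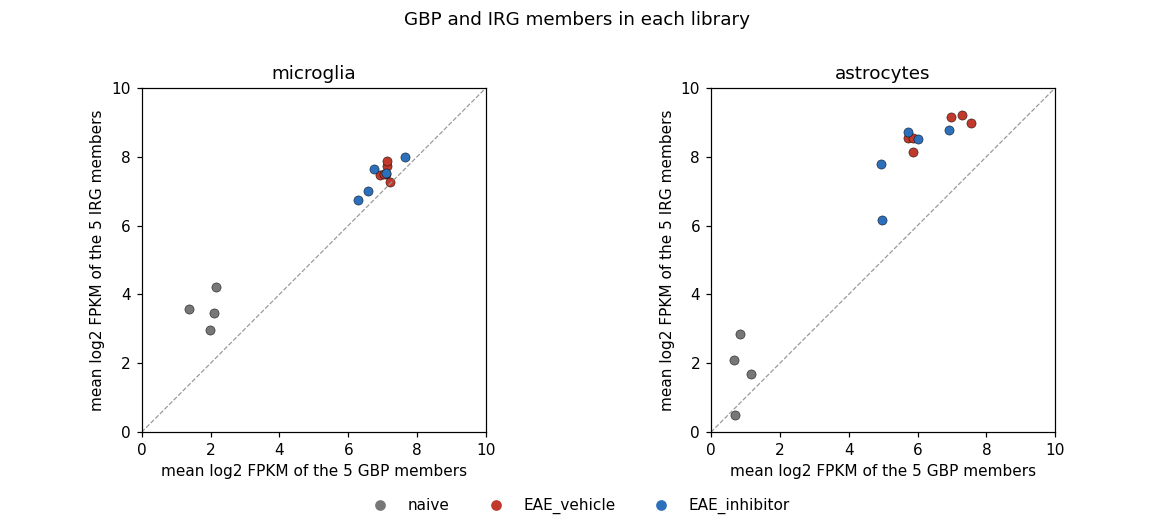
Mean log2 FPKM of the 5 GBPs and of the 5 IRGs in each library, by cell type and group; each point is 1 library. In naïve libraries the IRG mean is 2.97 to 4.21 in microglia and 0.49 to 2.85 in astrocytes, and in EAE-vehicle libraries it is 7.27 to 7.88 and 8.12 to 9.20.

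The order of levels with EAE differed in sharpness between the cell types. In EAE-vehicle microglia the means ran from Gbp2 (9.56) through Iigp1, Irgm1, Igtp, Gbp3, Gbp6, Gbp7, Ifi47 and Irgm2 to Gbp5 (3.72), and neighbours did not overlap between Gbp2 and Iigp1, between Igtp and Gbp3 and between Irgm2 and Gbp5. In EAE-vehicle astrocytes they ran from Igtp (9.99) through Irgm1, Ifi47, Iigp1, Gbp2, Gbp6, Gbp3, Irgm2 and Gbp7 to Gbp5 (2.04), and every pair of neighbours overlapped.

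Averaged by family, the GBPs were at 1.38 to 2.15 in naïve and 6.91 to 7.21 in EAE-vehicle microglia, and at 0.66 to 1.16 and 5.71 to 7.56 in astrocytes. IRG means in EAE-vehicle libraries did not overlap between the cell types, being 7.27 to 7.88 in microglia and 8.12 to 9.20 in astrocytes, whereas the GBP means did. With EAE the microglia libraries were close to each other, with member SDs from 0.14 (Iigp1 and Igtp) to 0.65 (Ifi47) over 6 libraries, and in astrocytes the SDs ran from 0.25 (Igtp) to 2.03 (Gbp5).

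The next comparison asks whether the RIPK1 inhibitor changed these genes within EAE. In microglia 0 of 10 members passed in limma, where 0.00345% of all genes did (1 gene), and 0 of 10 passed the cutoff of the study, where 1.76% did. No member had an unadjusted p under 0.05 in limma or in the exact permutation test, where 3.24% of all genes were lower with an exact p under 0.05. The differences ran from -0.51 to 0.12 with a median of -0.13.

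Gbp6 and Gbp2 had the lowest differences in microglia. Gbp6 was at 7.29, 7.54, 5.99, 7.49 and 6.43 with the inhibitor, a difference of -0.51 (SE 0.29) from the vehicle libraries. Gbp2 was at 9.29, 9.54, 8.61, 9.49 and 8.45, a difference of -0.49 (SE 0.41, limma adjusted p = 0.93, exact permutation p = 0.0844). In both genes EAE-inhibitor 3 and 5 were below every vehicle library, and the other 3 were close to the vehicle values.

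The other members in microglia lay closer to vehicle. Gbp3 was at 7.42, 7.44, 6.66, 7.80 and 6.71 (-0.27) and Igtp at 8.58, 8.05, 7.12, 8.34 and 7.49 (-0.44), again with EAE-inhibitor 3 and 5 lowest. Gbp7, at 7.42, 7.54, 6.12, 8.20 and 7.12, and Gbp5, at 2.28, 3.42, 3.99, 5.29 and 4.21, had differences of 0.09 and 0.12. Irgm1, Irgm2, Iigp1 and Ifi47 differed by -0.13, -0.13, -0.08 and -0.13. EAE-inhibitor 3, with the lowest mean over the members (6.51), had the highest mean of T cell markers (2.35) and of monocyte and neutrophil markers (8.45) among all microglia libraries, and the part of those cells was not tested.

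**Figure D4:**
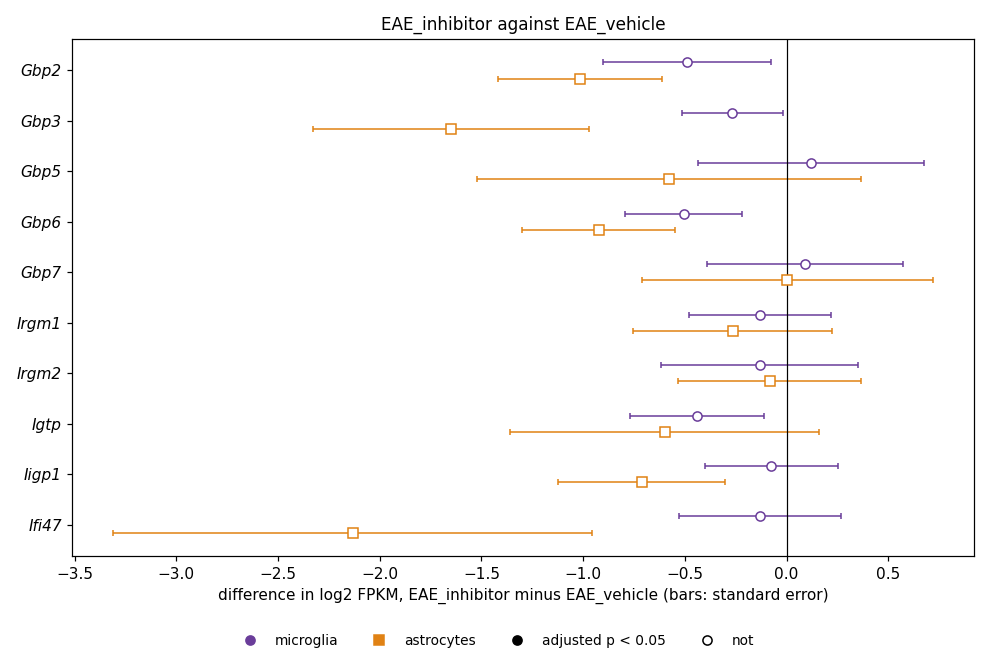
Difference between EAE-inhibitor and EAE-vehicle libraries for each member in microglia and in astrocytes, on the log2 scale, with bars of 1 SE from limma. No member passed an adjusted p of 0.05; differences run from -0.51 to 0.12 in microglia and from -2.13 to 0.00 in astrocytes.

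In astrocytes several GTPases were lower with the inhibitor before correction for multiple tests, and none after it. 0 of 10 members passed in limma (lowest adjusted p = 0.84), where 0.0% of the 30718 genes did, and 3 of 10 (Gbp2, Gbp3 and Gbp6) were lower by the cutoff of the study, where 3.02% of genes passed it in either direction. The exact two-sided permutation test gave an unadjusted p under 0.05 for 5 of 10 members, all lower with the inhibitor, where 1.06% of all genes were lower at that level. 9 of 10 differences were negative, where 56.7% of all genes had a negative difference (60.6% in microglia), and the median of the members was -0.66.

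All 3 GBPs past the cutoff of the study overlapped between the groups. Gbp3 was at 4.00, 7.62, 7.35, 7.11 and 5.89 with the inhibitor, a difference of -1.65 (SE 0.68, unadjusted limma p = 0.0283, exact permutation p = 0.0108). Gbp2 was at 6.83, 8.08, 7.38, 7.61 and 6.66, a difference of -1.01 (SE 0.40, unadjusted limma p = 0.0237, exact permutation p = 0.0433). Gbp6 was at 6.39, 8.36, 7.43, 7.48 and 6.68, a difference of -0.92 (SE 0.38, unadjusted limma p = 0.0264, exact permutation p = 0.0368). In each of them EAE-inhibitor 1 and 5 were the lowest. For Gbp2 and Gbp3 every inhibitor library lay below the vehicle mean, and for Gbp6 this held for 4 of 5.

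The effector IRGs behaved in a like manner. Iigp1 was at 6.97, 8.15, 7.66, 8.25 and 7.18 with the inhibitor, a difference of -0.71 (SE 0.41, unadjusted limma p = 0.102, exact permutation p = 0.0346). Ifi47 was at 1.77, 8.18, 8.09, 8.14 and 6.89, a difference of -2.13 (SE 1.18, unadjusted limma p = 0.0899, exact permutation p = 0.0368). Every inhibitor library of these genes was below the vehicle mean. Without EAE-inhibitor 1 the difference was -0.92 for Ifi47 and -1.05 for Gbp3, and the median of the members was -0.49.

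The regulators and the other GBPs had smaller differences from vehicle in astrocytes. Igtp was at 7.55, 9.89, 9.56, 10.27 and 9.70 (-0.60), Irgm1 at 8.05, 9.73, 9.89, 10.03 and 9.28 (-0.27) and Irgm2 at 6.38, 7.96, 7.43, 6.95 and 5.94 (-0.08). Gbp7, at 6.71, 6.51, 5.53, 6.42 and 5.39, had a difference of 0.00, and Gbp5, at 0.87, 3.93, 2.36, 0.06 and 0.11, one of -0.58. Their exact permutation p ran from 0.16 (Igtp) to 0.998 (Gbp7).

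The EAE-inhibitor astrocyte libraries with the least GTPase RNA were also low in T cell markers. EAE-inhibitor 1 and 5 had means over the 10 members of 5.55 and 6.37 and means of the T cell markers of 1.41 and 2.36, while EAE-inhibitor 2, 3 and 4 had 7.84, 7.27 and 7.23 over the members and 3.70, 5.84 and 5.62 for T cells. EAE-vehicle 4, with a T cell mean of 1.45, had 6.99 over the members. Of the 9 T cell markers none passed between inhibitor and vehicle (0 also by the cutoff of the study), and all 9 had negative differences with a median of -0.70. Of 8 markers of monocytes and neutrophils, 7 had negative differences (median -0.94, none passing, 0 also by the cutoff of the study), and the mean of the 9 listed was 1.97 and 2.24 in EAE-inhibitor 1 and 5 and 3.39 to 6.13 in the other 3 libraries. Of 8 astrocyte markers, 7 had positive differences (median 0.68), none passed in limma, and Atp1b2 (1.73) and Gja1 (1.07) were higher by the cutoff of the study. Ifng, the gene of interferon-gamma, was listed at 0 in every microglia and naïve astrocyte library, at 6.61, 2.16, 0.00, 3.83, 5.35 and 4.92 in EAE-vehicle astrocytes and at 0.00, 0.00, 4.94, 3.23 and 0.00 with the inhibitor. The part of the makeup of these libraries in the inhibitor comparison was not tested. The interaction of inhibitor and cell type passed for 0 of 10 members, where 0.0% of all genes passed, with values from -0.05 to 2.00.

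Against naïve mice, the EAE-inhibitor libraries still held high GTPase levels. This comparison shares its libraries with both others. In microglia 8 of 10 passed as higher, where 2.73% of genes passed, with a median difference of 4.13, and the exceptions were Irgm2 (1.18, adjusted p = 0.387) and Igtp (1.38, adjusted p = 0.0634). The call on Gbp5 there (2.48, limma adjusted p = 0.0457) was lost on leaving out any of 12 of the 15 libraries, all but naïve 3, naïve 4 and EAE-inhibitor 1, while Igtp passed without naïve 4 (1.64, adjusted p = 0.0309) or EAE-inhibitor 3 (1.58, adjusted p = 0.0391). In astrocytes 7 of 10 passed, where 0.13% of genes did, with a median of 5.91, and the exceptions were Gbp5 (1.40, adjusted p = 0.897), Gbp7 (4.25, adjusted p = 0.0553) and Ifi47 (5.22, adjusted p = 0.273). Gbp3 lost its call without naïve 1 (4.60, adjusted p = 0.0551) or naïve 3 (4.54, adjusted p = 0.0556). Gbp7 passed without EAE-vehicle 1 (4.25, adjusted p = 0.00303), and Ifi47 passed without EAE-inhibitor 1 (6.43, adjusted p = 0.0102) or naïve 2 (6.50, adjusted p = 0.0425).

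The other interferon-inducible GTPases, a list of 19 genes of the GBP, IRG, GVIN and Mx families, moved in the same comparisons. In microglia 11 of 19 passed as higher with EAE and none as lower, with a median of 2.69, namely the effector IRGs Tgtp2 (6.77) and Tgtp1 (5.43), Gm4951 (6.14), Gbp8 (6.09), Gbp4 (5.84), Gbp2b (4.34), Gbp11 (4.18), Gbp10 (3.00), Gm12250 (2.72), F830016B08Rik (2.69) and Gbp9 (2.02). In astrocytes 6 of 19 passed as higher, namely Tgtp1 (7.31), Tgtp2 (7.24), Gbp10 (6.96), Gm4951 (6.39), Gbp4 (5.81) and Gm12250 (5.60), with a median of 3.09. Among all genes tested, 2.37% passed as higher with EAE in microglia and 0.342% in astrocytes. 2 of the list differed between the cell types in the rise, Gbp2b (4.36 more in microglia, adjusted p = 0.00294) and Gbp10 (-3.96, adjusted p = 0.00893), where 0.982% of all genes did. With the inhibitor 0 of 19 passed in limma in either cell type, and 3 of 19 in astrocytes were lower by the cutoff of the study, namely Gbp4 (-2.34), Tgtp1 (-2.19) and Gbp11 (-1.99). That cutoff was passed by 3.02% of all genes in astrocytes, in either direction. Tgtp1 and Tgtp2 are near-identical neighbours, so that reads may have been split between them.

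Genes of interferon signaling upstream of the GTPases rose in part. Irf1, a transcription factor induced by interferon, rose by 2.38 in microglia (SE 0.62, limma adjusted p = 0.0454) and by 4.38 in astrocytes (SE 0.87, limma adjusted p = 0.0368), and Irf7, which amplifies type I interferon, by 2.90 and 5.07. Socs1, a feedback inhibitor of Jak kinases, rose by 2.98 in microglia, where the receptor genes Ifngr1 (-1.997) and Ifnar2 (-1.09) fell. Of this list, 4 of 15 genes tested passed as higher and 2 as lower in microglia (median 0.03), and 3 of 16 as higher in astrocytes (median 0.78). Among all genes tested, 2.37% passed as higher and 1.56% as lower in microglia, and 0.342% as higher in astrocytes. Irf8, a transcription factor of myeloid cells, was the gene of this list whose change differed between the cell types (-4.16, adjusted p = 0.00647). With the inhibitor none passed (0 of 15 and 0 of 16 in limma), and 2 in microglia (Tyk2, 0.88, and Ifnar2, 0.79) and 0 in astrocytes did by the cutoff of the study. That cutoff was passed by 1.76% of all genes in microglia and 3.02% in astrocytes.

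The Atg8 conjugation machinery, which helps load GBPs and IRGs on pathogen vacuoles, had 1 of 10 genes higher with EAE in microglia (Atg7, 2.61) and 0 of 10 in astrocytes, where Gabarap alone passed the cutoff of the study (0.70), with medians of -0.28 and 0.12. Among all genes tested, 2.37% passed as higher with EAE in microglia and 0.342% in astrocytes. 4 of the 10 genes, the Atg8 family members Gabarapl1, Gabarapl2, Map1lc3a and Map1lc3b, passed as higher in astrocytes than in microglia in all 3 groups. The share of all genes higher in astrocytes was 5.93% in naïve, 5.91% in EAE-vehicle and 5.78% in EAE-inhibitor libraries. Of the 6 inflammasome genes, through which GBPs are known to promote cell death, Pycard alone passed in microglia with EAE (1.02). Casp1 (1.35) and Casp4 (1.20) were also higher there by the cutoff of the study, which 12.0% of all genes passed in microglia. None of 6 passed in astrocytes, with 3 past the cutoff of the study (Casp4, 3.39, Casp1, 2.98, and Pycard, 2.32). The median in astrocytes was 2.06, beside 0.03 over all genes, of which 6.71% passed that cutoff. All 6 passed as higher in microglia than in astrocytes of naïve mice, where 5.94% of all genes did. With the inhibitor 0 genes of either list passed in limma in either cell type, and 1 did by the cutoff of the study, Map1lc3a in microglia (0.79). That cutoff was passed by 1.76% of all genes in microglia.

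How far the members moved together was described by Pearson correlations over libraries, which share the normalization and the contrast between naïve and EAE. Within the 11 microglia libraries with EAE, Irgm1 followed the mean of the other 9 members most closely (r = 0.915) and Gbp5 did not follow it (r = 0.0122). In the 11 astrocyte libraries with EAE, Iigp1 (r = 0.908) and Gbp3 (r = 0.89) followed it most and Gbp7 least (r = 0.155). Over all 15 microglia libraries the 5 genes outside the lists most like the mean of the members were Ifi211, Il18bp, Fcgr4, Serpina3f and H2-Ab1, with r from 0.988 to 0.993 among 5632 genes compared. For astrocytes they were H2-T23, Psmb8, Lcn2, Psmb9 and Ifi27l2a, with r from 0.961 to 0.982 among 4654 genes.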

How the data were processed

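RNA of sorted microglia and astrocytes was sequenced from oligo(dT)-primed, PCR-amplified libraries. The authors deposited log2 FPKM values of 30952 genes in 30 libraries, made in OmicSoft Array Studio 10.1.1.3 per the submitters' processing notes. As deposited, every library holds the same sorted values, so they were quantile-normalized together. The aligner, the annotation release and the offset added before the log are not given in the sources used here, and 15717 genes, 6 members among them, carry a flag for confounding in the deposited table that was not used to filter.

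Groups were compared with limma 3.58.1 in R 4.3.3 (lmFit, then eBayes with a trend), fitting each cell type on its own (28958 genes in microglia, 30718 in astrocytes) and all 30 libraries together for cell types and interactions. The fit of all 30 libraries treats the cell types as independent, although the study describes both as isolated from the same EAE mice. A gene without any variation in a fit was dropped. A gene passed at a Benjamini-Hochberg adjusted p under 0.05 over all genes tested. Exact two-sided permutation tests of the difference of means used Python 3.11.15 and SciPy 1.17.1. The pipeline was tested on simulated data. Whether equal replicate numbers pair libraries was checked by correlating deviations from group means. Only pairs with equal numbers were correlated, so the check cannot tell whether these numbers pair libraries. The main fits have no replicate block, and a block was run as an alternative.

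All 10 members are named in every comparison, and genes of the pathway lists are named where they passed for EAE-vehicle against naïve, for the inhibitor or in an interaction. Cell type markers that passed are named in part. The members, lists and rules were chosen with earlier results of these data known. Members were matched to GENCODE M21 (10 of 10) and to RefSeq promoters (8 of 10). Alternatives were a filter on a mean log2 value of at least 1, an added offset of 1, centring on library medians, library quality weights, values without signal set to 0, the replicate block, all libraries in 1 fit, the cutoff of the study, leaving out each library and, chosen after seeing the data, leaving out libraries with under 10000 genes with signal. 1 gene of the interferon signaling list and 1 promoter stretch are not reported here.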

Additional observations from a re-analysis of the deposited data

Results flagged for a closer look

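Among the 60 sets of values formed by 10 members in 6 groups, 10 held a library that stood apart from the rest of its group by Dixon's test at the 95% level. The test assumes normal values and the sets share libraries, so this count cannot be set against a chance rate. Irgm2 was listed at 0 in 3 naïve astrocyte libraries, so that any other value there is flagged. 7 of these were naïve libraries. In naïve astrocytes, replicate 2 was high for Gbp3 (3.74), Iigp1 (2.00) and Ifi47 (5.23), replicate 1 was high for Gbp6 (0.88) and Irgm2 (0.10), and replicate 3 was low for Irgm1 (2.46). In naïve microglia, replicate 4 was low for Irgm2 (1.84). Naïve astrocytes 2 and naïve microglia 4 had fewer than 10000 genes with signal.

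The other 3 were astrocyte libraries with EAE. EAE-vehicle 1, with the fewest genes with signal of all 30, was low for Gbp7 (3.08). EAE-inhibitor 1 was low for Igtp (7.55) and Ifi47 (1.77).

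The rise with EAE differed between the cell types for 2 members in an interaction test. Irgm2 rose less in microglia than in astrocytes, by -5.68 on the log2 scale, and Igtp by -5.20.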

How the results depend on the processing

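9 of 10 members passed in both cell types for EAE-vehicle against naïve and 0 of 10 for inhibitor against vehicle under most alternatives. The exceptions for EAE were the cutoff of the study (10 in microglia), the replicate block (8 in microglia, where Gbp5 had an adjusted p of 0.069, and 7 in astrocytes, where Gbp7 had 0.222 and Ifi47 0.122), 1 fit of all 30 libraries (7 in microglia, where Gbp5 had 0.206 and Igtp 0.213) and leaving out libraries as given in the report. For inhibitor against vehicle in astrocytes, 3 members passed the cutoff of the study. The count for naïve microglia against astrocytes was 4 with library quality weights and 4 without libraries under 10000 genes with signal (2 to 4 leaving out 1 library). For EAE-vehicle it was 4 with the filter, the offset or centring (1 to 4), and for EAE-inhibitor 4 with the filter or centring and 1 under the replicate block (1 to 4). The interaction count for EAE was 4 with quality weights. The median of the members for EAE-inhibitor microglia against astrocytes ran from -0.16 (without astrocytes EAE-inhibitor 1) to 0.77. For astrocytes EAE-vehicle against naïve, 178 of all genes passed, 61 under the block and 886 in 1 fit of all libraries. The cause was not tested for any of these.

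Directions turned in differences that had not passed. For the inhibitor in astrocytes, Gbp7 was at -0.0143 with the offset, -0.0259 centred, -0.63 with quality weights and -0.42 without libraries under 10000 genes, and Irgm2 was at 0.0708 under the block and 0.0154 without those libraries. Between the cell types, Ifi47 was at 0.45 (quality weights) and 0.76 (without those libraries) in naïve mice and at -0.066 (centred) and -0.40 (quality weights) with the inhibitor, and Iigp1 at -0.11 (centred) with vehicle. In the EAE interaction, Gbp2 was at -0.0324 centred, -0.30 with quality weights and -0.15 without those libraries, Gbp7 at 0.0451 with the offset and 0.0127 without those libraries, and Iigp1 at -0.18, -0.62 and -0.73 centred, weighted and without those libraries. In the inhibitor interaction, Irgm2 was at 0.0079 centred and 0.0009 weighted, and Igtp at -0.22 weighted.

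Leaving out 1 library turned the following directions, given as the lowest and highest value. For the inhibitor in microglia these were Gbp5 (-0.24 to 0.51), Gbp7 (-0.14 to 0.38), Irgm1 (-0.27 to 0.055), Irgm2 (-0.25 to 0.009), Iigp1 (-0.22 to 0.13) and Ifi47 (-0.38 to 0.0069). In astrocytes they were Gbp5 (-1.19 to 0.0062), Gbp7 (-0.60 to 0.26), Irgm1 (-0.53 to 0.0709) and Irgm2 (-0.34 to 0.17). Between cell types they were Gbp6 (-0.0702 to 0.31), Iigp1 (-0.18 to 0.68) and Ifi47 (-0.71 to 1.03) in naïve mice and Ifi47 (-1.03 to 0.57) with the inhibitor. In the EAE interaction they were Gbp2 (-0.29 to 0.53), Gbp5 (-0.0604 to 0.97), Gbp7 (-0.82 to 0.45) and Iigp1 (-0.49 to 0.38), and in the inhibitor interaction Gbp7 (-0.16 to 0.70), Irgm1 (-0.20 to 0.40), Irgm2 (-0.30 to 0.21) and Igtp (-0.30 to 0.38).

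Centring on the library median shifted the median of all genes by 0.12 for EAE in astrocytes, by -0.11, -0.30 and -0.25 between cell types in naïve, EAE-vehicle and EAE-inhibitor libraries and by -0.20 in the EAE interaction. It took the share of higher calls among all genes from 57.2% (2443 higher, 1829 lower) to 25.1% (2133 higher, 6352 lower) for EAE-vehicle microglia against astrocytes, from 55.4% to 39.9% for EAE-inhibitor, from 61.5% to 43.1% in the interaction and from 59.0% to 69.0% for EAE in astrocytes. The deviations of libraries with equal replicate numbers correlated at -0.11 to 0.24 within microglia, -0.16 to 0.08 within astrocytes and -0.04 to 0.13 between the cell types. Pairs with unequal numbers were not set beside them, so these values cannot tell whether equal numbers pair libraries. The depth is unknown, which limits what a listed 0 says.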
